A study of Rattus norvegicus with 24 samples.

Results

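The comparison of a copper-poor, sucrose-rich diet with the control diet rested on the livers of 12 of the 24 rats of the study, chosen by the diet named in the labels, with every measured gene included. The 6 rats of the low copper 30% sucrose diet ate less than 0.3 mg copper per kg of feed with 30% sucrose, and the 6 rats of the control diet ate 125 mg copper per kg (the adequate level, called High Cu in the labels) with 10% sucrose. The other 12 rats, 6 on adequate copper with 30% sucrose and 6 on low copper with 10% sucrose, shared the estimate of the spread and are given beside some results. All were male Wistar rats, 6 months old at the start and 9 months old at sampling, fed for 12 weeks on purified diets based on AIN76A with starch and dextrin making up the remaining carbohydrate. Liver RNA was labelled with Cy3 and hybridised to single-colour Agilent arrays of 60-base probes, 1 array per rat. Both copper and sucrose differed between these diets, so what each contributed cannot be told apart here.

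Copper enters the liver cell through the transporter Slc31a1, is handed by chaperones to enzymes such as superoxide dismutase and ceruloplasmin, and leaves through the ATPase Atp7b. Metallothioneins are small cysteine-rich proteins that bind copper and zinc, and the liver makes more of them when these metals are plentiful, through metal response elements in their promoters. Sucrose is split into glucose and fructose, and the fructose is taken up largely by the liver, where it feeds glycolysis and the synthesis of fatty acids.

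A level is the log2 ratio of a probe's signal to its array's 75th percentile, and a difference is the mean level on the low copper 30% sucrose diet minus that on the control diet, so 1 stands for a doubling. Arrays lay 8 to a slide, and these 2 diets shared none: slide 1 held the 6 rats of the low copper 30% sucrose diet and 2 rats on adequate copper with 30% sucrose, while slide 3 held the 6 control rats and 2 rats on low copper with 10% sucrose. Diet and slide can therefore not be told apart in a direct comparison. A fit with slide as a block estimates the same difference through the other diets, as the sum of 3 steps within slides, and it is given beside the results. All 24 hepatocyte markers were well above background on all 12 arrays, so the tissue was liver as labelled. Their summed signal had a log2 of 11.37 to 11.99 in the 6 rats of the low copper 30% sucrose diet, against 11.62 to 12.28 in the control rats, and 22 of the 24 had a difference below 0 (median -0.13, none past the test). In whole liver, fewer cells of a type and less RNA per cell cannot be told apart.

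The 2 largest falls were at probes for metallothionein sequences. Mt1 (metallothionein 1, named Mt1a on the array, probe on rn4 at chr19:11261631-11261690, minus strand) had a lowest, median and highest level of 3.80, 4.58 and 5.01 on the low copper 30% sucrose diet, against 5.66, 6.48 and 7.01 on the control diet. Every rat on the low copper 30% sucrose diet lay below every control rat. The difference was -1.82 (SE 0.43, adjusted p = 0.0380 by limma with Benjamini-Hochberg adjustment over 18641 genes), which is 0.284 times the control level. The exact two-sided permutation test over the 12 rats gave p = 0.00216, the smallest that 6 rats against 6 allow. This and every other exact p in the text is not adjusted for the 13 genes so tested. Mt1 averaged 4.56 ± 0.43 on the low copper 30% sucrose diet, 5.90 ± 1.18 with adequate copper and 30% sucrose, 5.48 ± 0.85 with low copper and 10% sucrose, and 6.37 ± 0.51 in control rats (SD, n = 6 each).

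The array carries further probes for metallothionein-like sequences, and they are printed because they share bases, which bears on how far their values are separate measurements. The probe FQ220235, an mRNA sequence without a gene name in the files, lies 321 bases from the Mt1 probe at chr19:11262012-11262071 (rn4, minus strand). The Mt2A (metallothionein 2A) probe at chr19:11268168-11268227 (rn4, minus strand) shares a run of 23 bases with it, and the probe of the uncharacterised transcript ENSRNOT00000058957 at chrX:55288646-55288705 (rn4, minus strand) shares a run of 11. The likeness goes beyond these unbroken runs. Laid over FQ220235, the Mt2A probe matched in 38 of 48 overlapping bases and the ENSRNOT00000058957 probe in 20 of 21. Capitals mark only the run shared with FQ220235 (in FQ220235 itself, the run shared with Mt2A).
FQ220235: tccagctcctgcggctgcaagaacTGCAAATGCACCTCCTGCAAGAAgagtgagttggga
Mt2A: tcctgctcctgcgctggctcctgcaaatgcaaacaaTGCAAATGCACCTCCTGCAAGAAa
ENSRNOT00000058957: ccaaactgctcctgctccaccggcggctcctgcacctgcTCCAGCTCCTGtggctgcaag
Transcripts of metallothionein genes are alike in their coding parts, so signal at 1 of these probes may come from another family member; its part in the values was not tested.

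Mt2A, which like Mt1 stores zinc and copper in the liver cell, had a lowest, median and highest level of 2.27, 2.45 and 2.63 on the low copper 30% sucrose diet, against 3.37, 4.04 and 4.66 on the control diet. The groups did not overlap, and the rats of the low copper 30% sucrose diet lay close together, with an SD of 0.14 against 0.53 in the control rats. The difference was -1.59 (SE 0.54), which did not pass the test over all genes (adjusted p = 0.113 by limma) although the exact permutation test over the 12 rats gave p = 0.00216. The printed Mt2A probe, a second one for this gene, also had a difference of -1.59, with levels of 2.36 ± 0.38 and 3.95 ± 0.63 on the low copper 30% sucrose and the control diet (SD, n = 6 each).

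FQ220235 had a lowest, median and highest level of 1.72, 2.74 and 3.01 on the low copper 30% sucrose diet, against 3.56, 4.55 and 5.17 on the control diet. It fell by 1.78 on the log2 scale (SE 0.45, adjusted p = 0.0428 by limma), with no overlap between the diets. The transcript on chromosome X had a difference of -1.64 (SE 0.43), just outside the threshold at an adjusted p of 0.0506 by limma, with means of 2.88 and 4.52 on the low copper 30% sucrose and the control diet.

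With slide as a block the estimates were -2.54 for Mt1, -2.68 for FQ220235, -2.46 for ENSRNOT00000058957 and -1.46 for Mt2A, so the direction was the same in all 4, and no adjusted p of this fit was under 0.05. The step between low copper 10% sucrose and control rats on slide 3 was -1.78 for Mt1, and the step between low copper and adequate copper rats on 30% sucrose on slide 1 was -0.94, each resting on 2 rats on 1 side. Without 1 rat, the adjusted p of Mt1 lay between 0.0337 and 0.110 and was under 0.05 in 3 of 12 such fits.

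**Figure D1:**
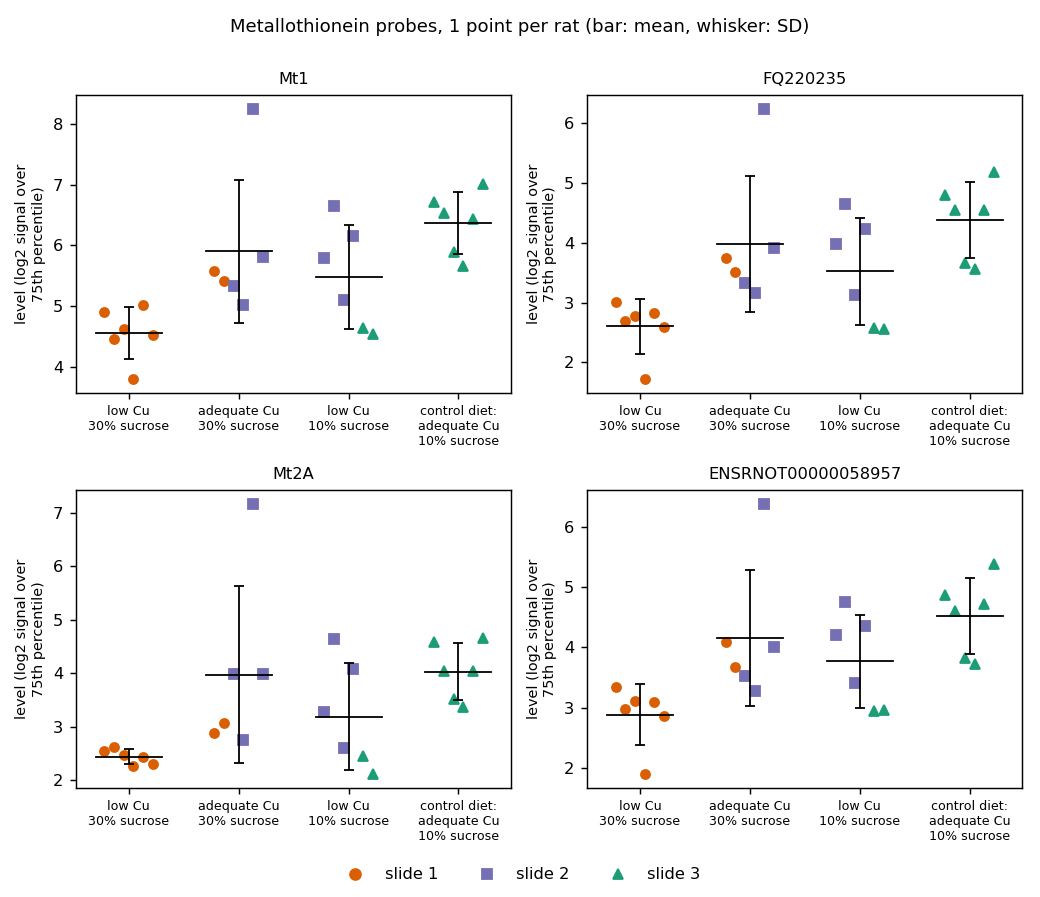
Level of the metallothionein probes in each rat (log2, relative to the array's 75th percentile), 1 point per rat, with the mean (bar) and SD (whisker) of each diet of 6 rats, the low copper 30% sucrose diet at the left and the control diet at the right; marker and colour give the slide. All 6 rats of the low copper 30% sucrose diet lie below all 6 control rats, with Mt1 at 3.80 to 5.01 and 5.66 to 7.01.

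Because the members of this family fell or lay lower together, the promoters of Mt1 and Mt2A are shown, as RefSeq gives them for GRCr8, each 250 bases up to the start of the gene. Capitals mark the core of the metal response element, TGCACNC or TGCGCNC, in either direction. The Mt1 promoter (chr19:10832976-10833225, minus strand) holds 6 matches and the Mt2A promoter (chr19:10838709-10838958, minus strand) holds 4.
Mt1: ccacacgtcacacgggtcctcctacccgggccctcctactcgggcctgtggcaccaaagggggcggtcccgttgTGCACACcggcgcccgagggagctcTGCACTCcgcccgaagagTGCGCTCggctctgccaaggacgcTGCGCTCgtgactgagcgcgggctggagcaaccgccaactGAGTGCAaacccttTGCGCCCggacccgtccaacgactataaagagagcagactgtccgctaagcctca
Mt2A: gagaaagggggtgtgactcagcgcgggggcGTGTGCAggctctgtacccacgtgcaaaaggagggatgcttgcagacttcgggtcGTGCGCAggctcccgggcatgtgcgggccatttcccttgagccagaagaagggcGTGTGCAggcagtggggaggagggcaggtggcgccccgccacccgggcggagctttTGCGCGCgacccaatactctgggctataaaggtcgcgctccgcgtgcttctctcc
Of 33469 rat promoters of this length, 20.6% hold at least 1 match, 0.266% hold at least 4 and 0.0269% at least 6. A match describes the letters of the window and says nothing on whether a factor binds there.

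In the lists for copper and for metallothioneins and zinc, 1 gene besides Mt1 passed the test. Of 22 measured genes for metallothioneins and zinc transport, Mt1 fell and none rose, 14 had a difference below 0, and the median was -0.09 against 0.05 over all 18641 genes. Of all genes 59.1% had a difference above 0 and 40.9% one below 0. The other zinc genes included Slc30a2 (a zinc transporter, difference -0.79, adjusted p = 0.371, well above background in 1 of 6 rats on the low copper 30% sucrose diet and in 5 of 6 control rats) and Slc39a1 (a zinc importer at the cell surface, -0.22, adjusted p = 0.311; its second probe read 0.29). Of 29 measured copper genes 1 rose, 17 had a difference below 0 and the median was -0.05. That gene was Steap2, a metalloreductase that reduces copper and iron. It had a lowest, median and highest level of -3.59, -2.92 and -2.69 on the low copper 30% sucrose diet, against -3.86, -3.74 and -3.44 on the control diet, with the ranges overlapping between -3.59 and -3.44. The difference was 0.67 (SE 0.17, adjusted p = 0.0419 by limma), 1.15 at a second probe (well above background in 6 of 6 and 3 of 6 rats) and 0.22 with slide as a block.

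The transcripts of the copper proteins below showed no difference past the test, and protein and enzyme activity were not measured. Cp (ceruloplasmin, the copper oxidase of plasma) had 6.66, 7.04 and 7.28 as lowest, median and highest level on the low copper 30% sucrose diet, against 6.19, 6.67 and 7.02 on the control diet, a difference of 0.35 with overlapping groups (exact permutation p = 0.0671). Sod1 (the cytosolic copper and zinc superoxide dismutase) averaged 7.57 ± 0.15 and 7.62 ± 0.20 on the low copper 30% sucrose and the control diet (SD, n = 6 each), and Ccs, its copper chaperone, averaged 3.52 ± 0.14 and 3.64 ± 0.18. The importer Slc31a1 had a difference of 0.01, and the exporting ATPases Atp7a and Atp7b had 0.15 and -0.04. For these 5 genes the exact permutation p lay between 0.275 and 0.926. Sod3 (the extracellular superoxide dismutase) had a difference of -0.41 (SE 0.16, adjusted p = 0.167) and Steap4 (a metalloreductase) one of -0.52 (SE 0.36, adjusted p = 0.527).

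Over all genes, 321 of 18641 rose (1.72%) and 7 fell (0.0376%) at an adjusted p under 0.05. At an unadjusted p under 0.05 the shares were 14.8% higher and 2.23% lower. The 2 diets did not overlap in 517 genes that were higher (2.77%) and 38 that were lower (0.204%). The counts depended on single rats: no gene passed without rat 1 or rat 2 of the low copper 30% sucrose diet, or without rat 4 or rat 6 of the control diet (0 higher and 0 lower in each of these 4 fits). Leaving out rat 4 or rat 6 of the low copper 30% sucrose diet gave 782 and 789 rises with 15 and 10 falls. No gene passed in either direction with slide as a block, and 847 genes had an unadjusted p under 0.05. After quantile normalization 4 genes rose and none fell.

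Besides Mt1 and FQ220235, the 5 other falls were Agxt, Gde1, Plin5, Rtn1 and RGD1309651. Agxt encodes the enzyme that turns glyoxylate into glycine, and in rat liver it works in peroxisomes and mitochondria. Its lowest, median and highest level was 0.47, 0.84 and 1.28 on the low copper 30% sucrose diet, against 1.20, 1.51 and 2.12 on the control diet, with the ranges overlapping between 1.20 and 1.28. Agxt fell by 0.70 on the log2 scale (SE 0.16, adjusted p = 0.0347 by limma). Against the same control rats, its differences were -0.61 on adequate copper with 30% sucrose and -0.52 on low copper with 10% sucrose.

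Gde1, a glycerophosphodiester phosphodiesterase that breaks down deacylated phospholipids, had 1.95, 2.10 and 2.41 on the low copper 30% sucrose diet, against 2.63, 2.82 and 2.99 on the control diet. The diets did not overlap. Gde1 fell by 0.66 on the log2 scale (adjusted p = 0.0468 by limma). Plin5 (perilipin 5, which coats lipid droplets and holds them at mitochondria) had -4.84, -4.43 and -4.20 on the low copper 30% sucrose diet, against -4.20, -3.72 and -3.10 on the control diet. The diets did not overlap, though the highest rat of the low copper 30% sucrose diet and the lowest control rat both lay near -4.20. The difference was -0.90 (adjusted p = 0.0428 by limma), 0.537 times the control level.

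Rtn1 (reticulon 1, a protein of the endoplasmic reticulum) had -5.45, -4.88 and -4.74 on the low copper 30% sucrose diet, against -4.44, -3.99 and -3.68 on the control diet, with no overlap and a difference of -0.94 (adjusted p = 0.0420 by limma). RGD1309651, an uncharacterised transcript with its probe at chr19:50963266-50963324 (rn4, minus strand), had -1.70, -1.12 and -0.61 on the low copper 30% sucrose diet, against -0.51, 0.22 and 0.25 on the control diet, with no overlap and a difference of -1.19 (adjusted p = 0.0448 by limma). With slide as a block the differences were -0.89 for Plin5 and -1.02 for RGD1309651, but only -0.18 for Agxt, -0.22 for Gde1 and -0.14 for Rtn1. Each of these 5 falls kept an adjusted p under 0.05 in 1 to 4 of the 12 fits without 1 rat.

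**Figure D2:**
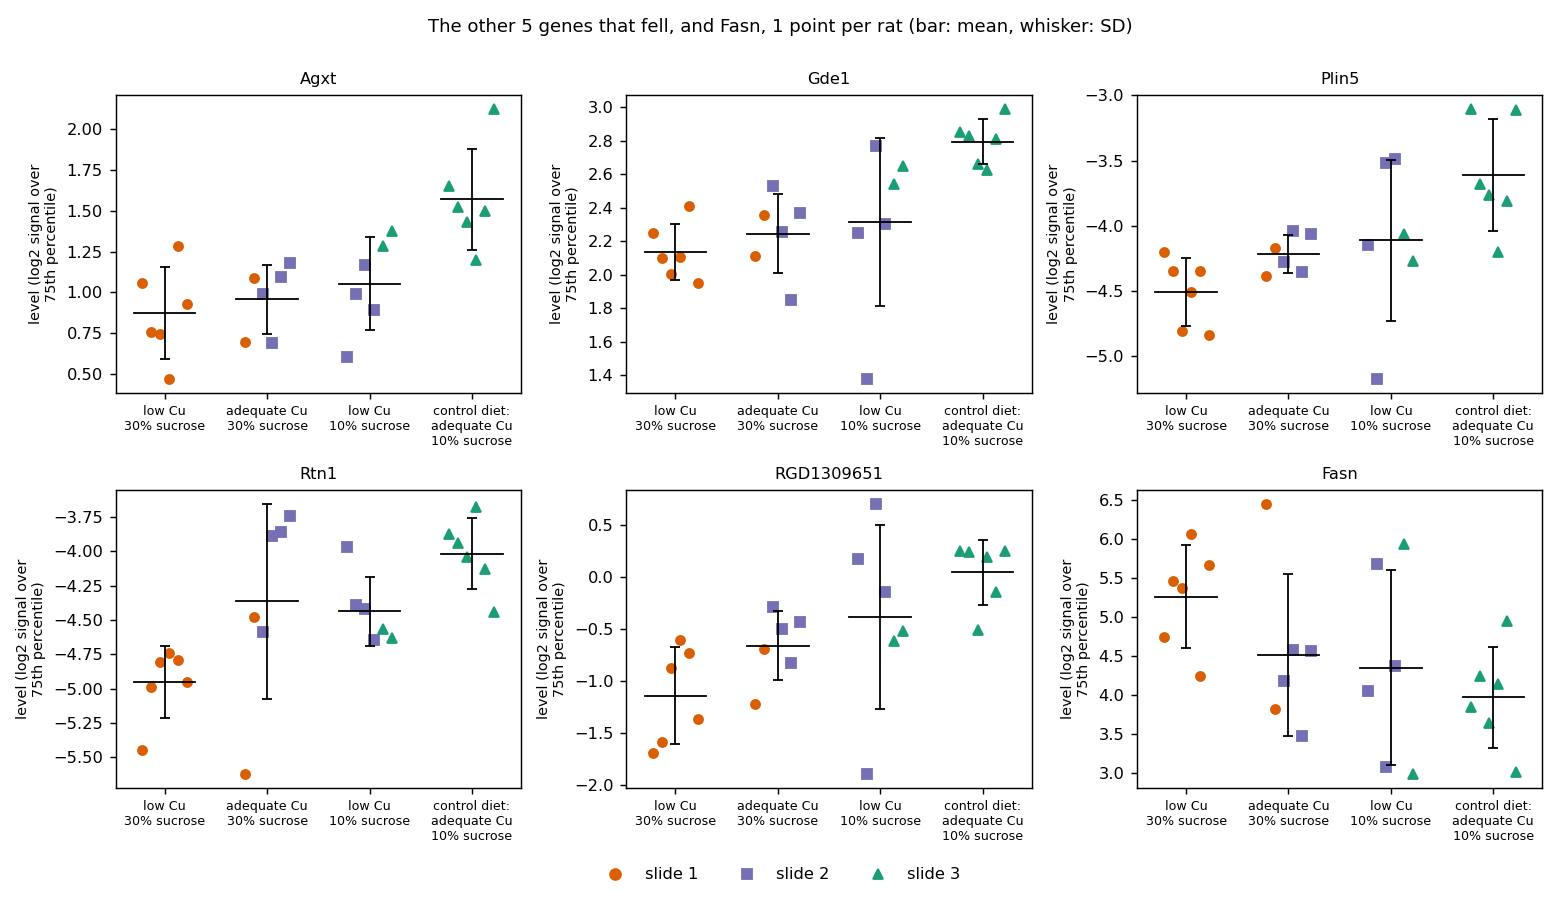
Level (log2, relative to the array's 75th percentile) of Agxt, Gde1, Plin5, Rtn1, RGD1309651 and Fasn in each rat, 1 point per rat, with mean (bar) and SD (whisker) of each diet of 6 rats, the low copper 30% sucrose diet at the left and the control diet at the right; marker and colour give the slide. Gde1 separates the diets fully (1.95 to 2.41 and 2.63 to 2.99), while Fasn overlaps (4.25 to 6.07 and 3.01 to 4.95).

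Without a slide term, genes that burn fat lay lower as a group, though none passed the test alone. Of 40 measured genes of fatty acid oxidation and PPAR alpha targets, 38 had a difference below 0, 12 of them at an unadjusted p under 0.05, and the median was -0.28 against 0.05 over all genes, where 2.23% had an unadjusted p under 0.05 on the lower side. Taken per rat, the median of this list relative to the mean of the 24 rats was -0.19, -0.08 and 0.10 (lowest, median and highest) on the low copper 30% sucrose diet, against 0.04, 0.26 and 0.34 on the control diet. The ranges overlapped between 0.04 and 0.10. With slide as a block the list median was -0.21, where that of all genes was -0.12 and that of genes above a level of 2 was -0.23. The median level of this list was 3.12, so in the block fit the list did not lie below genes of that class. Without a slide term the median of that class was -0.02, and the list median lay between -0.318 and -0.257 without 1 rat. The same genes had medians of -0.35 on adequate copper with 30% sucrose and -0.24 on low copper with 10% sucrose, both set against the same control rats.

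Within this list Slc25a20, the carnitine carrier of the inner mitochondrial membrane, had 2.53, 2.62 and 2.77 on the low copper 30% sucrose diet, against 2.79, 2.96 and 2.99 on the control diet, so the diets did not overlap (difference -0.29, adjusted p = 0.136). Acot12, a thioesterase that splits acetyl-CoA, had 1.58, 1.71 and 1.89 on the low copper 30% sucrose diet, against 2.05, 2.16 and 2.50 on the control diet, again without overlap (difference -0.47, adjusted p = 0.100). Cyp4a2, a fatty acid hydroxylase, and Cpt1a, the entry gate of fatty acids into mitochondria, were chosen after their values were seen, with differences of -1.34 (adjusted p = 0.310) and -0.67 (adjusted p = 0.166). The 2 members above 0 were Cyp4a8 at 0.19 and Ucp2 at 0.08.

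Genes that make fat leaned the other way. Of 21 measured genes of de novo lipogenesis, 18 had a difference above 0, with a median of 0.21 and none past the test. Over all genes 59.1% lay above 0 and the median was 0.05. At an unadjusted p under 0.05, 4 of the 21 were higher (19.0%), near the 14.8% of all genes on this side. Fasn, fatty acid synthase, had 4.25, 5.42 and 6.07 on the low copper 30% sucrose diet, against 3.01, 3.99 and 4.95 on the control diet. The ranges overlapped between 4.25 and 4.95. The difference was 1.29 (SE 0.51), 2.44 times the control level. The exact permutation p over the 12 rats was 0.0130, not adjusted for the 13 genes so tested, and the adjusted p over all genes by limma was 0.176.

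Acly (which makes cytosolic acetyl-CoA) averaged 5.43 ± 0.70 on the low copper 30% sucrose diet and 4.29 ± 0.53 on the control diet (SD, n = 6 each), a difference of 1.14 (adjusted p = 0.0953 by limma). Me1, the malic enzyme that supplies NADPH, had a difference of 0.82 (adjusted p = 0.253). The transcription factor Srebf1, which switches on these genes, had 0.31 (exact permutation p = 0.182), and the desaturase Scd (Scd1 on the array) had 0.18 with overlapping ranges of 7.06 to 8.07 and 7.15 to 8.51 on the low copper 30% sucrose and the control diet (exact permutation p = 0.502). In the block fit Fasn had 0.51, Me1 1.38, Srebf1 0.21, Acly 0.06 and Scd -0.27, and the list median was 0.19. On single diets against the same controls, Fasn had 0.54 on adequate copper with 30% sucrose and 0.38 on low copper with 10% sucrose. The median of the whole lipogenesis list on these diets was -0.007 and 0.058.

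In sugar metabolism 1 of 32 measured genes rose and the median was 0.09. With slide as a block the median was -0.21, with 26 of the 32 below 0, and with median scaling it was -0.03. Of all 18641 genes, 11719 were below 0 in the block fit. Genes above a level of 2 had a block median of -0.23, and the median level of this list was 3.74. The rise was that of Pfkfb3, which makes the activator of phosphofructokinase, with -3.58, -3.01 and -2.66 on the low copper 30% sucrose diet, against -4.23, -3.83 and -3.79 on the control diet. The diets did not overlap and the difference was 0.84 (adjusted p = 0.0366 by limma), and 0.21 with slide as a block. A second probe for Pfkfb3 was well above background in 1 of 6 rats on the low copper 30% sucrose diet and in 0 of 6 control rats, so no size is given for it. Pklr, the liver pyruvate kinase, had a difference of 0.53 (exact permutation p = 0.0281, adjusted p = 0.241 by limma), and -0.13 with slide as a block. Khk, the ketohexokinase that starts fructose breakdown, had 7.66 ± 0.10 on the low copper 30% sucrose diet and 7.52 ± 0.17 on the control diet (SD, n = 6 each), a difference of 0.14 (exact permutation p = 0.126) that was -0.44 with slide as a block. Hk2, a hexokinase low in healthy liver, had 0.69 (adjusted p = 0.133), and -0.63 with slide as a block. Together 13 genes were given exact tests, and their exact p values are printed without adjustment for the 13 tests. After Benjamini-Hochberg adjustment by limma over all genes only Mt1 among them was past the threshold.

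Of 24 measured genes of lipid droplets and triglyceride turnover, Plin5 fell, Lipe rose and 17 had a difference below 0 (median -0.16). Lipe, the hormone-sensitive lipase, had a difference of 0.91 at its brighter probe (adjusted p = 0.0474 by limma), whereas a second probe, well above background in 1 of 6 and 4 of 6 rats, read -0.17 and the slide block gave -0.31. Pnpla2, the first lipase to act on stored triglyceride, had a difference of -0.44 (adjusted p = 0.152). Of 27 measured genes of cholesterol synthesis and its control, 19 had a difference above 0 with a median of 0.13 and none past the test. Among them Hmgcs1, an enzyme of the cholesterol pathway, had -0.42 (adjusted p = 0.291, and 0.33 with slide as a block). Of 28 lipoprotein genes 21 had a difference below 0 (median -0.12), with Lrp1, a receptor for lipoprotein remnants, at -0.50 and Scarb1, the HDL receptor, at -0.39. Of 20 bile acid genes 15 had a difference below 0 (median -0.10), with Cyp8b1, the sterol 12-alpha-hydroxylase, at -0.89 (adjusted p = 0.189) and Slc27a5, which couples bile acids to CoA, at -0.43.

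**Figure D3:**
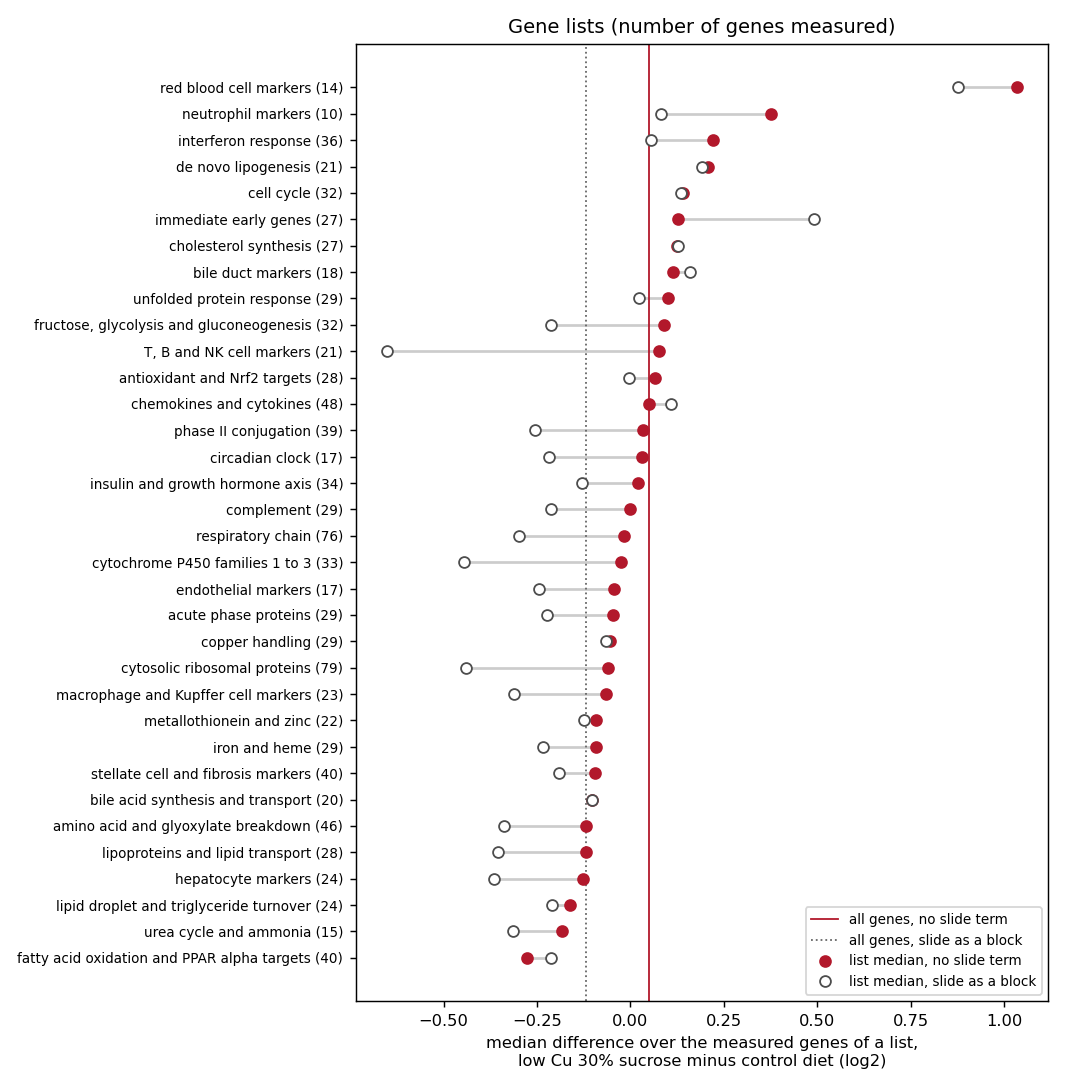
Median difference (log2) between the low copper 30% sucrose diet and the control diet over the measured genes of each list, without a slide term (filled) and with slide as a block (open), with the medians of all genes as vertical lines at 0.05 and -0.12. Fatty acid oxidation lies at -0.28 and -0.21 and red blood cell markers at 1.03 and 0.88.

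Red blood cell transcripts lay higher. Of 27 listed markers 14 were measured, 13 had a difference above 0, 8 of them at an unadjusted p under 0.05, and 1 rose past the test, with a median of 1.03. Over all genes 59.1% lay above 0, 14.8% did so at an unadjusted p under 0.05, and 1.72% rose. Rhd, a blood group protein of the red cell membrane, had -3.73, -3.02 and -2.61 on the low copper 30% sucrose diet, against -4.48, -4.25 and -3.73 on the control diet. The diets did not overlap, though both came near -3.73, and the difference was 1.07 (adjusted p = 0.0406 by limma). Alas2, the first enzyme of heme synthesis in red cell precursors, had a difference of 1.54 (adjusted p = 0.137), Ahsp, which holds free alpha globin, had 0.999 (adjusted p = 0.143), and the globin Hbg1 had 0.96 (adjusted p = 0.0506). Hba-a1, an alpha globin, was chosen after its values were seen, and averaged 7.38 on the low copper 30% sucrose diet and 6.21 on the control diet (adjusted p = 0.202). Globin genes are near copies of each other, so their probes may share signal.

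The summed signal of the red blood cell markers had a log2 of 7.40 to 9.73 in the low copper 30% sucrose rats, against 5.89 to 8.36 in the control rats, and the list median was 0.88 with slide as a block and 0.887 to 1.18 without 1 rat. Klf1, a factor of red cell precursors, had a difference of 0.02. Against the same control rats, the list medians were 1.28 on adequate copper with 30% sucrose and 1.03 on low copper with 10% sucrose. Whether blood in the tissue had a part in these values was not tested. Among 29 genes of iron and heme none passed the test and the median was -0.09. Hamp (hepcidin, the hormone that limits iron uptake) had 5.35, 6.57 and 7.30 on the low copper 30% sucrose diet, against 6.66, 6.91 and 7.42 on the control diet (difference -0.47, adjusted p = 0.426), and Fth1, the ferritin heavy chain, had a difference of -0.17 (adjusted p = 0.370).

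Interferon response genes had a difference above 0 in 35 of 36 cases, with a median of 0.22 and none past the test, where 59.1% of all genes lay above 0. Of these 36 genes 4 were higher at an unadjusted p under 0.05 (11.1%), a smaller share than the 14.8% of all genes. Herc6, a ligase for the ubiquitin-like protein Isg15 in mouse, had -0.77, -0.69 and -0.63 on the low copper 30% sucrose diet, against -1.77, -1.39 and -0.79 on the control diet. Its groups did not overlap, with a difference of 0.64 (adjusted p = 0.0537 by limma) that was 0.94 with slide as a block. Rsad2 (viperin, an antiviral enzyme) had 0.62 (adjusted p = 0.0991), and Bst2 (tetherin, which holds budding viruses) had 0.61 (adjusted p = 0.227). Control rat 1 stood apart, with a list median of -0.79 relative to the mean of the 24 rats. Without that rat the median difference of the list was 0.067, and with slide as a block it was 0.06.

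**Figure D4:**
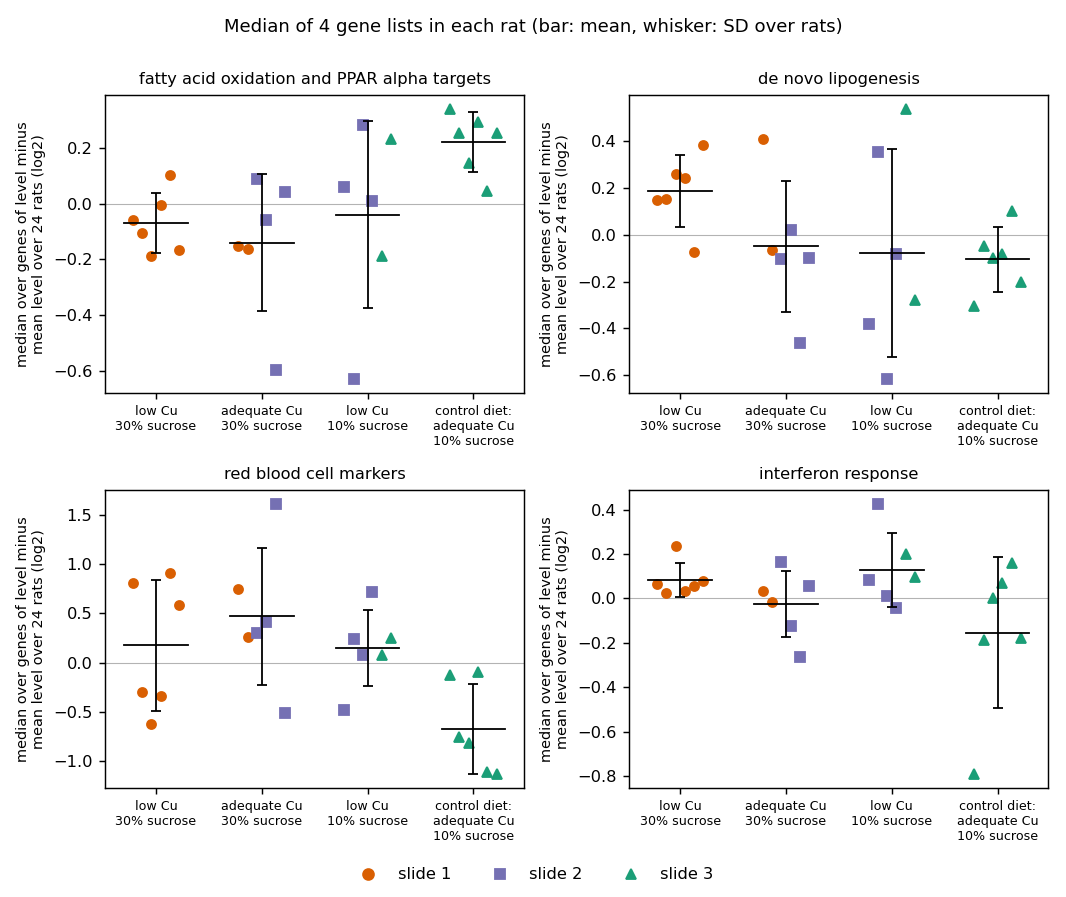
Median over the genes of 4 lists (fatty acid oxidation, de novo lipogenesis, red blood cells, interferon response) in each rat, as level minus the mean level over 24 rats (log2), 1 point per rat, with mean (bar) and SD (whisker) of each diet of 6 rats, the low copper 30% sucrose diet at the left and the control diet at the right; marker and colour give the slide. In fatty acid oxidation the rats of the low copper 30% sucrose diet lie at -0.19 to 0.10 and the control rats at 0.04 to 0.34, and in interferon response 1 control rat lies at -0.79.

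Among markers of other cells, 10 of 19 neutrophil markers were measured, 1 rose and 9 had a difference above 0, with a median of 0.38 (0.08 in the block fit). Of the 10, 2 were higher at an unadjusted p under 0.05 (20%), against 14.8% of all genes. The list median against the same control rats was larger on the other diets, at 1.41 on adequate copper with 30% sucrose and 1.23 on low copper with 10% sucrose. Csf3r, the receptor for the neutrophil growth factor G-CSF, rose by 1.30 (adjusted p = 0.0280 by limma, and -0.03 with slide as a block), with means of -4.15 and -5.45 on the low copper 30% sucrose and the control diet, where it was well above background in 6 of 6 and 4 of 6 rats. Cxcr2, a chemokine receptor of neutrophils, was near background, well above it in 4 of 6 rats on the low copper 30% sucrose diet and in 1 of 6 control rats, and its signal did not differ past the test (adjusted p = 0.159). The summed signal of the neutrophil markers had a log2 of 0.30 to 4.71 on the low copper 30% sucrose diet, against 0.07 to 0.79 on the control diet, and the list median was 0.182 without rat 4 of the low copper 30% sucrose diet. Markers of T, B and NK cells had a median of 0.08 over 21 measured genes, with 1 rise, and -0.65 with slide as a block. The B cell adaptor Blnk rose by 1.40 (adjusted p = 0.0251 by limma, and 0.20 with slide as a block), and the T cell kinase Lck had 0.69 (adjusted p = 0.0932). Ccr7, the receptor that guides lymphocytes and dendritic cells to lymph nodes, rose by 0.93 (adjusted p = 0.0380 by limma, and -0.12 with slide as a block). Of 23 macrophage markers none passed and the median was -0.07.

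Markers of stellate cells and fibrosis had a median of -0.10 over 40 measured genes, with none past the test. Tgfb2, a growth factor of fibrosis, had a difference of 0.86 at its brighter probe (adjusted p = 0.0634), while another probe was well above background in 0 of 6 rats on the low copper 30% sucrose diet and in 3 of 6 control rats, and Acta2 (smooth muscle actin) had 0.42 (adjusted p = 0.178). The endothelial markers had a median of -0.04, with Ehd3, a membrane-shaping protein of endocytosis, at -0.56 (adjusted p = 0.0946, and -1.002 with slide as a block).

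Antioxidant and Nrf2 target genes had a median of 0.07 over 28 measured genes (-0.0046 with slide as a block), and 1 rose. Slc7a11, which imports cystine for glutathione synthesis, was well above background in 4 of 6 rats on the low copper 30% sucrose diet and in 0 of 6 control rats. As a bound, Slc7a11 was 1.78-fold higher on the low copper 30% sucrose diet (adjusted p = 0.0405 by limma, measured means -5.23 and -6.14). For this bound each control rat entered at its own signal or, where higher, at the weakest signal well above background on its array. The difference of Slc7a11 was 0.05 with slide as a block. Gclc, the rate-limiting enzyme of glutathione synthesis, had a difference of 0.58 (adjusted p = 0.174), and the peroxidase Prdx1 had 0.36 (adjusted p = 0.174).

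Enzymes of amino acid and glyoxylate breakdown leaned lower, with 34 of 46 below 0, a median of -0.12 and Agxt as the 1 fall. Gnmt, which uses up methyl groups, had -0.36 (adjusted p = 0.224), and Bhmt, which methylates homocysteine, had -0.33 (adjusted p = 0.242). The 15 genes of the urea cycle had a median of -0.18 with 12 below 0. Cytochromes P450 of families 1 to 3 (median -0.03), conjugating enzymes (0.03), the respiratory chain (-0.02) and acute phase proteins (-0.05) had medians close to 0 with none past the test. In the block fit these medians were -0.45, -0.25, -0.30 and -0.22, where that of all genes was -0.12. In that fit 29 of the 33 cytochromes and 73 of the 76 respiratory chain genes lay below 0, against 11719 of all 18641 genes. Genes above a level of 2 had a block median of -0.23, and the median levels of these lists were 3.27, 3.42, 4.90 and 7.43. Of 79 cytosolic ribosomal protein genes none passed, and 59 had a difference below 0 with a median of -0.06. In the block fit all 79 were below 0, at a median of -0.44. In the growth hormone list Cish, a feedback inhibitor of cytokine receptors, had 0.75 (adjusted p = 0.0591), and Car3, a carbonic anhydrase abundant in male rat liver, had -0.75 (adjusted p = 0.378, and -2.41 with slide as a block). The sulfotransferase Sult1c2 had -1.05 (adjusted p = 0.0885).

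The 321 rises were mostly of dim probes. Their median level was -3.91 on the low copper 30% sucrose diet and -4.87 on the control diet, with differences of 0.35 to 2.40 (median 1.03). A mean level under -2 over all 24 rats was found for 288 of them (89.7%), against 8630 of all genes (46.3%), and 53 were well above background in 0 of 6 control rats. In the dimmest class, up to -5, 75 of 1865 genes rose and the median of all genes in the class was 0.37. Above 2, only 1 of 3240 genes rose, 3 fell, and the class median was -0.02. In the block fit the class medians were -0.33 and -0.23. Genes for odorant, vomeronasal and taste receptors, which belong to sensory cells, made up 41 of the 321 (12.8%), against 391 of all genes tested (2.10%).

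**Figure D5:**
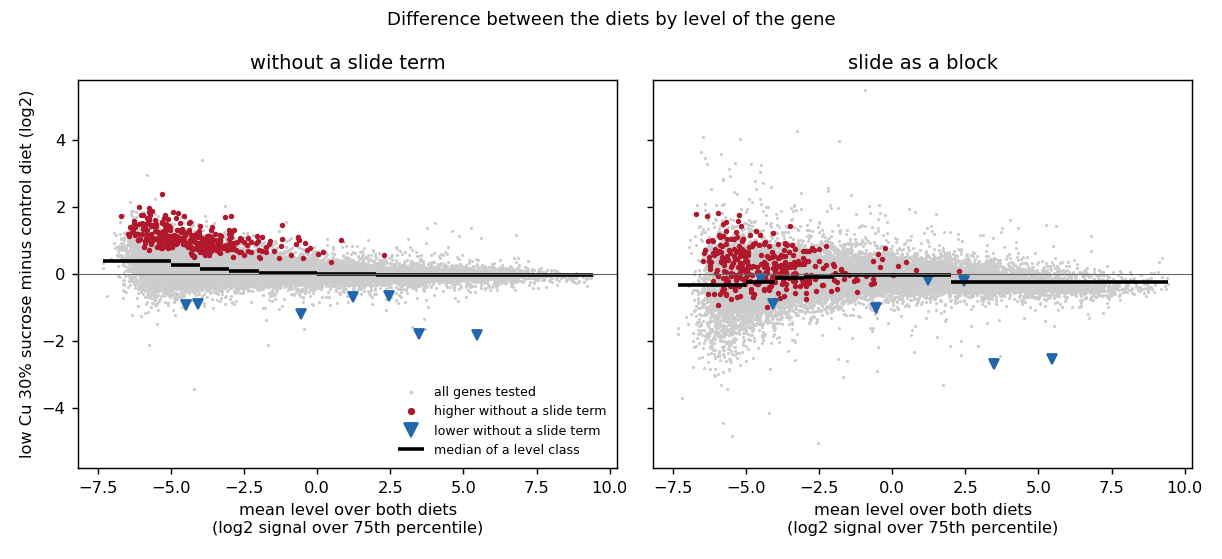
Difference between the low copper 30% sucrose diet and the control diet (log2) against the mean level over both diets (log2, relative to the array's 75th percentile), 1 point per gene, without a slide term and with slide as a block, with genes past the test and the medians of level classes marked; classes were set by the mean level over all 24 rats. Without a slide term the dimmest class lies at a median of 0.37 and the brightest at -0.02, against -0.33 and -0.23 in the block fit.

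Rats of the same diet on different slides were also compared. Rats on low copper with 10% sucrose lay on slide 2 (4 rats) and slide 3 (2 rats), and in these rats 1407 genes (7.55%) were higher and 18 (0.0966%) lower on slide 2 than on slide 3 at an adjusted p under 0.05 by limma. With 2 rats on slide 3, the values of these rats and of the slide cannot be told apart. Rats on adequate copper with 30% sucrose lay on slide 1 (2 rats) and slide 2 (4 rats), and there 0 genes were higher and 0 lower at an adjusted p under 0.05 by limma, with 1387 at an unadjusted p under 0.05, against 3097 in the other pair of slides. The 1407 genes and the 321 rises share 134 genes, which is 41.7% of the rises and 9.52% of the 1407. The 321 genes had a median difference of 0.84 between slides 2 and 3, against 0.05 over all genes, and of -0.03 between slides 1 and 2, against 0.08 over all genes. With slide as a block, 203 of the 321 had a difference above 0 and 118 below 0 (median 0.21), and 15 of those above 0 had an unadjusted p under 0.05. Of all 18641 genes in that fit, 6922 were above 0 and 11719 below 0, and 847 had an unadjusted p under 0.05 in either direction. The 2 other diets set against the same control rats gave medians of 1.23 (adequate copper with 30% sucrose) and 1.21 (low copper with 10% sucrose) for these 321 genes. The slide's part in these rises cannot be told apart from that of the diet.

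Among the rises well above background in at least 3 rats of each diet, the 10 with the largest differences were Rph3a (1.76, a synaptic vesicle protein), Spmip7 (1.73, named RGD1309870 on the array), Tcte1 (1.72, a testis protein of the sperm tail), Spink5 (1.70, a protease inhibitor of skin), Fancd2osl1 (1.56, LOC686031 on the array), Kcns2 (1.53, a potassium channel subunit), the unannotated probe A_64_P045429 (1.53), Cckar (1.47, the cholecystokinin receptor), Tmem104 (1.47) and Or1e18 (1.42, Olr1468 on the array, an odorant receptor). In the block fit 8 of these 10 were below 0, as were 11719 of all 18641 genes. Cckar and Spmip7 were at 0.64 and 0.07 in that fit. Tmem104, a membrane protein of unsettled role, had -0.82, -0.39 and -0.17 on the low copper 30% sucrose diet, against -2.28, -1.94 and -1.26 on the control diet. Its groups were apart, and its difference was -0.17 with slide as a block.

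In the block fit, 15 of the 321 rises had the same sign and an unadjusted p under 0.05. Over all 18641 genes, 847 had an unadjusted p under 0.05 in this fit, but in either direction. The 2 counts are therefore not alike, and whether the 15 rises stand out by number was not tested. The 9 of them that were well above background in at least 3 rats of each diet are described here. Mmp25, a membrane-bound metalloprotease found on leukocytes, had -4.79, -4.25 and -3.87 on the low copper 30% sucrose diet, against -5.57, -5.25 and -5.03 on the control diet. The groups did not overlap, and the difference was 0.93, with 0.83 in the block fit. Its adjusted p of 0.0152 by limma was the lowest value of all genes, and Mmp25 was not alone in having it. Mmp25 differed from the same control rats by 1.38 on adequate copper with 30% sucrose and by 1.28 on low copper with 10% sucrose. Its step between low and adequate copper on 30% sucrose on slide 1 was -0.52. The step between low copper 10% sucrose and control rats on slide 3 was 1.27, and each step had 2 rats on 1 side. Parp11 (a mono-ADP-ribosyltransferase) rose by 0.77 with 1.06 in the block fit, and Krt5 (a keratin of basal epithelium) by 0.51 with 0.85. Cyp4f18, which in mouse neutrophils breaks down leukotriene B4, rose by 0.88 with 1.24 in the block fit. The others were Ptchd1 (1.25 and 1.29 in the block fit), Asb7 (1.15 and 1.16), Utf1 (0.76 and 0.87) and the uncharacterised LOC691984 (1.19 and 1.44) and RGD1565779 (0.996 and 1.16). These 9 were at a mean level under -2 on both diets, and Mmp25 passed in 8 of 12 fits without 1 rat, Parp11 in 7 and Krt5 in 4.

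For genes not well above background in any control rat but so in all 6 rats of the low copper 30% sucrose diet, the difference is a bound. Each control rat entered it at its own signal or, where higher, at the weakest signal well above background on its array. By this bound Slc23a3, described on the array as a nucleobase transporter, was 3.13-fold higher on the low copper 30% sucrose diet (adjusted p = 0.0347 by limma, measured means -4.40 and -6.07). The odorant receptor Or7e171d (Olr1162 on the array) was 2.64-fold higher (adjusted p = 0.0251 by limma, measured means -4.81 and -6.24). On the log2 scale the bounds were 1.65 and 1.40, close to the measured differences of 1.67 and 1.43, so control readings near background largely set them. The differences of Slc23a3 and Or7e171d in the block fit were 1.77 and 0.22. In Slc23a3, rat 3 of the low copper 30% sucrose diet lay at -2.31 and the next highest rat at -4.44. Without 1 rat the difference of Slc23a3 ranged from 1.25 to 1.80. Its adjusted p by limma was under 0.05 in 3 of 12 such fits, and that of Or7e171d in 8.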

How the data were processed

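The scanner software, per the file headers, was Agilent Feature Extraction 10.7.3.1 (protocol GE1_107_Sep09), and the headers place the probes on rn4. Its processed signal, the deposited intensity used here, has the background subtracted and spatial trends removed within each array, and arrays are not scaled to each other. The authors' deposited value table holds a score whose median is 0 and whose interquartile range is 1 in each column, and served as an alternative. It was put on a log2 scale by multiplying by 662 and adding 80.4, with a floor of 5; how its scale was set is not given in the sources used here. Marks of 0 or 1 that the deposited files give each spot (well above background, saturated, outlier) are of the unit other. No sample was left out.

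Of 62976 spots per array, 4259 were controls and 58717 were used, and 0.652% were left out as marked outliers. The log2 processed signal was taken minus the 75th percentile of the array (433 to 1284 in signal units) and averaged per probe, which gave 30367 probes. Probes well above background on at least 6 of 24 arrays were kept (21179), and the brightest probe stood for each of 18641 genes out of 26278 names. Of the arrays' probes, 59.9% to 73.4% were well above background, and the number of rats limits the precision. Current symbols matched 18004 probes by accession.

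A linear model with a mean per diet was fitted to all 24 arrays with limma 3.58.1 (R 4.3.3), tables were read with version 1.17.8 of data.table, and plots used pandas 2.3.3 and matplotlib 3.10.9; the test was two-sided, with Benjamini-Hochberg adjustment at 0.05. The fit was checked on simulated data. The same replicate number did not pair rats across diets. The members and lists were chosen with earlier results of these data known. Named genes were the 10 largest rises and falls past the threshold, those also under 0.05 with slide as a block, the largest bounds, up to 4 per list by smallest p, and 13 fixed genes; some are not reported here. A bound sets the brighter mean against a mean of the dimmer diet. Each array of the dimmer diet enters at its own signal or, where higher, at its weakest signal well above background. Sequences came from the array files (probes) and RefSeq GRCr8 (promoters). Alternatives were other scalings, background corrections, filters, blocks, weights, probe rules and leaving out each rat.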

Additional observations from a re-analysis of the deposited data

Results flagged for a closer look

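Among 238 groups of 6 rats examined over the genes and lists described, 13 held a rat far from the others, its gap to the nearest of them, as a share of the group's range, being above Dixon's 95% critical value for 6 samples. Chance alone flags about 1 in 20 groups, so this number is near what chance gives. On the low copper 30% sucrose diet, rat 4 lay low in FQ220235 at 1.72 and in ENSRNOT00000058957 at 1.90, while rat 1 lay low in Rtn1 at -5.45 and in Steap4 at 0.608. On the same diet rat 3 lay high in Lck at -4.24 and in Slc23a3 at -2.31, and rat 6 lay high in Or7e171d at -4.22. Among control rats, rat 6 lay low in Steap4 at 1.33 and in Kcns2 at -6.77, and rat 4 lay high in Scd at 8.51. Of the list medians relative to the mean of 24 rats, interferon response lay high in rat 3 of the low copper 30% sucrose diet at 0.236 and low in control rat 1 at -0.792, and the cell cycle list lay low in rat 6 of the low copper 30% sucrose diet at -0.505.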

How the results depend on the processing

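Without a slide term, 321 genes were higher and 7 lower on the low copper 30% sucrose diet than on the control diet. Those counts were 941 and 45 with only the 12 arrays, 0 and 0 with slide as a fixed block, as a random block, with quantile normalization and slide as a block, and with normexp background correction, 4 and 0 with quantile normalization, 2 and 0 with the authors' value table, 268 and 22 with median scaling, 75 and 0 with no filter on dim probes, 10 and 0 with probes well above background on all 24 arrays, and 1966 and 160 with array weights. Fewer genes entered the strictest filter (14835). Of the described genes that passed without a slide term and entered that filter, 16 no longer passed and 2 still did. The causes of these changes in the counts were not tested. With the replicate number as a block the counts were 628 and 11. Rats of the same number correlated from -0.29 to 0.25 in their deviations, so the numbers mark no pairs. Without 1 rat the counts ranged from 0 to 789 and from 0 to 15. The median of all genes was 0.05 without a slide term, -0.07 with median scaling, 0.00 with quantile normalization and -0.12 with slide as a block. Pklr (exact permutation p = 0.0281 over 12 rats) had 0.41 with median scaling (exact p = 0.0844) and 0.40 to 0.62 without 1 rat, where 4 of 12 fits no longer passed.

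Of 34 list medians, 6 changed sign with slide as a block, 9 with median scaling and 7 with quantile normalization. For single genes, signs turned in the following. With slide as a block they were -0.27 for Scd, -0.13 for Pklr, -0.0154 for Acat2, -0.053 for Hbg1, -0.0256 for Csf3r and -0.18 for Or1e18. With quantile normalization and the block they were 0.24 for Rtn1 and 0.0652 for Sod1. Turned under slide as a block and under quantile normalization with it were Atp7b (0.0356 and 0.0358), Prdx1 (-0.25 and -0.0965), Khk (-0.44 and -0.11), Hk2 (-0.63 and -0.57), Lipe (-0.31 and -0.12), Hmgcs1 (0.33 and 0.63), Scarb1 (0.0439 and 0.0838), Cyp8b1 (0.11 and 0.11), Ccr7 (-0.12 and -0.0523), Lck (-0.67 and -0.55), Tgfb2 (-0.12 and -0.13), Cish (-0.35 and -0.37), Rph3a (-0.67 and -0.61), Tcte1 (-0.56 and -0.63), Spink5 (-0.37 and -0.43), Fancd2osl1 (-0.18 and -0.078), Kcns2 (-0.28 and -0.13), A_64_P045429 (-0.46 and -0.47) and Tmem104 (-0.17 and -0.20). Slc39a1 had 0.0332 as the mean of its probes. Values near 0 turned most easily: Atp7a had -0.00778 with quantile normalization, -0.0293 in the authors' table and -0.0199 to 0.273 without 1 rat, Atp7b had -0.102 to 0.00442 without 1 rat, and Slc31a1 had -0.0619 with position as a block, -0.0539 with quantile normalization, -0.104 with median scaling, -0.013 with array weights and -0.0474 to 0.0925 without 1 rat.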
